A study of Mus musculus with 6 samples.

Results

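Neutrophils carry their antimicrobial proteins in granules, and the genes followed here are 9 of the 31053 genes in each count matrix, taken by name as genes of the 2 main granule classes. The 5 primary (azurophil) granule genes were Mpo, Elane, Prtn3, Ctsg and Ms4a3, and the 4 secondary (specific) granule genes were Ngp, Camp, Ltf and Lcn2. They were measured in 6 libraries of single-cell RNA (droplet method, 3′ ends counted), 1 per condition. Bone marrow of wild-type C57BL/6 mice was cultured with GM-CSF to give dendritic cells (DCs), and the suspended cells were left untreated, stimulated with VD3 (vitamin D3, 1e-06 M for 24 h from day 7 of culture) or nucleofected with Cas9 and guide RNAs against Ndrg2 (Ndrg2-KO DCs). The untreated cells had not been nucleofected, so the knockout and the nucleofection cannot be told apart. The other 3 libraries came from splinted skin wounds of mice, explanted on day 10 from 5 mice per group, after treatment with hydrogels that carried control DCs, Ndrg2-KO DCs or no cells (blank). The labels call the control DCs of the wounds untreated, whereas the methods of the study describe nucleofection with guides that have no target. The design text of the series speaks of GFP+ cells sorted from parabiosis wounds, which neither the labels nor the study describe for these libraries. The labels and the study were followed. Below, the cultures are named untreated, VD3 and Ndrg2-KO, the wounds control, Ndrg2-KO and blank, and values are given in these orders unless a sentence says otherwise. The question put to these genes was how the immature stages in culture compared with the neutrophils of the wounds.

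As background, a neutrophil fills its granules in sequence while it matures in the bone marrow. Myeloperoxidase and the serine proteases of the primary granules are transcribed at the promyelocyte stage, and lactoferrin, the cathelicidin precursor and lipocalin 2 of the secondary granules at the later myelocyte and metamyelocyte stages. Most of these mRNAs are low or gone in neutrophils that have left the marrow, while the proteins persist in the granules. GM-CSF expands granulocytes and macrophages beside DCs, so such cultures can hold granulocyte stages.

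The kept cells numbered 1948 to 8825 per library, with 29675507 to 143627482 unique molecular identifiers (UMIs) in total and a median of 4415 to 16316 UMIs per cell. Levels are given as UMIs per 1000000 UMIs of the library or of the named cells (CPM), with exact 95% Poisson intervals where printed. All intervals cover counting error only, and since each condition had a single library, no conditions could be tested against each other. Ndrg2, the gene cut in the knockout, stood at 4.62, 1.42 and 0.884 CPM in the cultures and at 6.10, 3.33 and 3.29 CPM in the wounds. Libraries shared between 1 and 19 cell barcodes per pair. Clusters were named from fixed marker lists and were built without the 9 genes, so the granule genes did not shape them.

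The primary granule genes are scattered over 4 chromosomes of the mouse genome (GENCODE M21, GRCm38). Elane, which encodes neutrophil elastase, lies on chromosome 10 at 79886247 to 79888215 and starts 3072 bases after the end of Prtn3, which encodes proteinase 3 and lies at 79874476 to 79883174 on the same strand, with 0 genes between them. Mpo, the gene of myeloperoxidase, lies on chromosome 11 at 87793581 to 87804413, Ctsg, the gene of cathepsin G, on chromosome 14 at 56099881 to 56102574, and Ms4a3, which encodes a membrane protein of granulocyte and monocyte progenitors rather than a granule enzyme, on chromosome 19 at 11629496 to 11640851. The annotation of Prtn3 overlaps Plppr3 and that of Mpo overlaps Gm11505, so reads that fell in the overlaps could belong to either gene. The stretches upstream of the 5 starts are shown because these genes were lower together in 2 of the cultures. They are reference sequence from RefSeq (GRCm38.p6), limited to the part of the 250 bases before the RefSeq start that lies outside the annotated exons of the gene, and the capitals mark GGAAGT, the core letters bound by ETS factors such as PU.1.
Mpo (chr11:87793534-87793580, plus strand): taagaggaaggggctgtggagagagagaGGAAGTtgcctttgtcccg
Elane (chr10:79886062-79886246, plus strand): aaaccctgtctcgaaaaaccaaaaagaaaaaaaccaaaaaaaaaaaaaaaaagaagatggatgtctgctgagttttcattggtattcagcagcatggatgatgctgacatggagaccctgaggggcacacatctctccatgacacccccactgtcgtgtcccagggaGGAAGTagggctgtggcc
Prtn3 (chr10:79879417-79879613, plus strand): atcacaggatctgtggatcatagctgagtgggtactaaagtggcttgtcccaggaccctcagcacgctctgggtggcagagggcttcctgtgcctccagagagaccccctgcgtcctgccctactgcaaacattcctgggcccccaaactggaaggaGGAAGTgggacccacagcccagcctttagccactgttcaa
Ctsg (chr14:56102575-56102824, minus strand): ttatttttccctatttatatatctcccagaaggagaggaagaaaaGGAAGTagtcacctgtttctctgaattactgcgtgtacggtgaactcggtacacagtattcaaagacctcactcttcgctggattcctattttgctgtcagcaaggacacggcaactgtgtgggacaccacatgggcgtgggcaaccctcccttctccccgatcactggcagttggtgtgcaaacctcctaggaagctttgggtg
Ms4a3 (chr19:11640852-11641101, minus strand): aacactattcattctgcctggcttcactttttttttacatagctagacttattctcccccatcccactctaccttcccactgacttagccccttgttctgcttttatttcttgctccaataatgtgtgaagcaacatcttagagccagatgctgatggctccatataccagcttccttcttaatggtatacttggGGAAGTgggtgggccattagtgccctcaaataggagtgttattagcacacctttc

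The letters GGAAGT, searched on both strands of the whole 250 bases before each RefSeq start, were present in 5 of 5 primary and 0 of 4 secondary granule genes and in 19.7% of 32851 mouse promoters of the same length. The longer form GAGGAAGT, which contains it, was found in Mpo, Elane and Prtn3 and in 2.44% of promoters. The letters CAACGG, the core bound by MYB factors, were found in Elane and Prtn3 and in 4.05% of promoters. These matches are a description of the letters, chosen after the sequences were seen, and not evidence of binding.

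Of the secondary granule genes, 3 lie on chromosome 9. Ngp, which encodes neutrophilic granule protein, lies at 110419747 to 110423012, Camp, the gene of the cathelicidin precursor, at 109847379 to 109849617, and Ltf, the gene of lactoferrin, at 111019271 to 111042767. Camp and Ngp are separated by 570129 bases with 22 genes between them, and Camp and Ltf by 1169653 bases with 52 genes. Lcn2, which encodes lipocalin 2, a protein that binds bacterial siderophores, lies on chromosome 2 at 32384633 to 32388252. The upstream stretches of Ngp and Ltf, taken from RefSeq in the same way, are shown for their contrast with the primary genes, and the capitals mark TTNNGNAA, the letters of a C/EBP site, where N is any base. In Ltf both marked stretches spell it as printed, and in Ngp both spell it on the opposite strand, so that the printed letters are its reverse complement.
Ngp (chr9:110419558-110419746, plus strand): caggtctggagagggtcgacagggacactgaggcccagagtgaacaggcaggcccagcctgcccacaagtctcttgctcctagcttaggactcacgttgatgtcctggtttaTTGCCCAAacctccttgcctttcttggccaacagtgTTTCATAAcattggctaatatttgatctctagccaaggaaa
Ltf (chr9:111019042-111019270, plus strand): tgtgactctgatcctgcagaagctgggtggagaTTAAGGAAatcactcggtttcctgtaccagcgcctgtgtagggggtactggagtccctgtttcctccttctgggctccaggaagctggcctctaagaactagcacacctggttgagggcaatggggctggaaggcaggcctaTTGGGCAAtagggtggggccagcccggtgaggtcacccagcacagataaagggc

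TTNNGNAA was present in 3 of the 4 secondary granule genes (Ngp, Ltf and Lcn2) and in 1 of the 5 primary ones, Ms4a3, where it overlaps the GGAAGT match. It was also present in 36.8% of all promoters, so its count among the members is little above the background of so short a pattern.

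The primary granule genes were highest in the untreated culture and lower with VD3. Apart from Prtn3, and from Ctsg in the Ndrg2-KO wounds, they gave under 1 CPM in the Ndrg2-KO culture and the wounds. Elane stood at 30.0, 12.3 and 0.111 CPM in the cultures and at 0.101, 0.0406 and 0.0573 CPM in the wounds, where it rested on 3, 2 and 2 UMIs. Ms4a3 gave 64.1, 12.8 and 0.369 CPM in the 3 cultures and 0, 3 and 1 UMIs in the 3 wounds. Both genes were therefore read almost wholly in the untreated and VD3 cultures.

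Mpo, whose enzyme makes hypochlorous acid in the phagosome, gave the fewest UMIs of the 5 in the untreated culture, at 7.0 CPM, with 3.24 CPM after VD3 and 0 UMIs in the Ndrg2-KO culture. The wounds held 14, 33 and 27 Mpo UMIs (0.472 to 0.774 CPM). Few of these lay in neutrophil-like cells, 0 of 14, 10 of 33 and 2 of 27, and the 10 were in 1 cell. Ctsg gave 30.7, 14.5 and 0.0696 CPM in the cultures and 1, 186 and 0 UMIs in the wounds. Prtn3, with 85.3, 42.4 and 5.49 CPM in the cultures and 3.0, 5.56 and 2.61 CPM in the wounds, held 89 or more UMIs in every library, the highest minimum of the 5.

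The secondary granule genes differed from one another. Ngp gave 81.7, 129 and 15.2 CPM in the cultures and 1.15, 22.9 and 1.06 CPM in the wounds. Camp gave 19.0, 19.3 and 10.9 CPM in the cultures and 0.573, 5.46 and 2.52 CPM in the wounds. Ltf, whose product sequesters iron, gave 12.0, 18.8 and 1.57 CPM in the cultures and 0.539, 7.43 and 1.80 CPM in the wounds. In all 3 genes the VD3 culture stood at or above the untreated one, and the Ndrg2-KO wounds stood above the other wounds.

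Lcn2 had another order, with 136, 263 and 17.0 CPM in the cultures but 390.0, 282 and 286 CPM in the wounds. It was the one member with its 3 highest levels in the wounds.

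**Figure D1:**
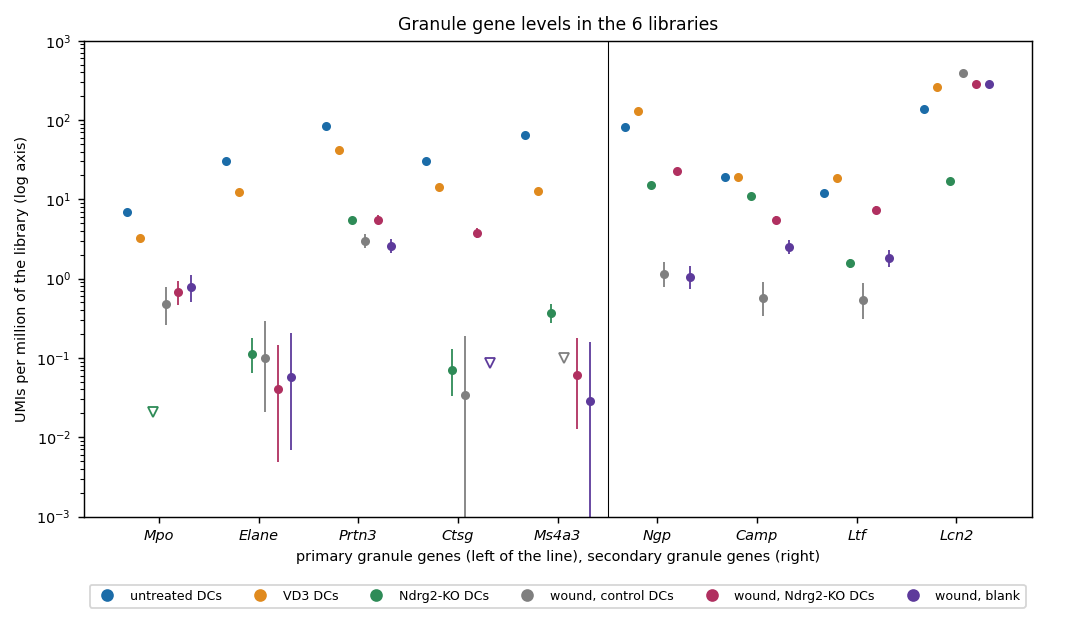
Level of each granule gene in the 6 libraries, in CPM of the library on a log axis, with exact 95% Poisson intervals (counting error only) and open triangles at the level of 3 UMIs where a library held 0. Among the cultures, the primary genes are lower with VD3 and lowest in Ndrg2-KO DCs (Elane 30.0, 12.3 and 0.111 CPM), whereas Lcn2 is highest in the wounds, up to 390.0 CPM.

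Few cells carried these UMIs. In untreated DCs, 10 cells held 69.5% of the Mpo UMIs, 78.6% of the Camp UMIs and 35.9% of the Ngp UMIs, and for Lcn2 the share of the 10 highest cells was 16.5%. In Ndrg2-KO DCs, Ngp was read in 40 of 7969 cells and 10 of them held 98.3% of its UMIs. A sum over a library thus rests on few cells, and in such sums fewer cells of a type and less RNA per cell cannot be told apart.

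Ndrg2-KO DCs held less of nearly every granule gene than untreated DCs. Of the 9 members, 8 were at least 2-fold lower, against a background of 9.28% of the 13329 genes with at least 50 UMIs in the 2 libraries together, and 0 were 2-fold higher. The median log2 difference was -3.96 over the members and -0.06 over all those genes. Mpo (0 against 928 UMIs), Elane (16 against 3981) and Ctsg (10 against 4076) passed the minimum only through the untreated culture, so for them the filter favours this direction and the count is a description. The primary genes differed most, with log2 differences of -8.07 for Elane (95% interval -8.88 to -7.37), -8.79 for Ctsg, -7.44 for Ms4a3 and -3.96 for Prtn3, and Mpo was at least 335-fold lower, taking 3 UMIs in place of its 0. Among the secondary genes, Lcn2 (-3.00), Ltf (-2.94) and Ngp (-2.43) were lower by less, and Camp, at -0.81 (-0.90 to -0.72), stayed within 2-fold.

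The Camp and Ngp levels of the Ndrg2-KO culture rested on a handful of cells. The 3 Ndrg2-KO cells with the most Ngp held 652, 479 and 464 Ngp UMIs and 436, 472 and 168 Camp UMIs, lay in a proliferating cluster, and carried 26 to 38 Prtn3 UMIs each. Without the 10 highest cells of each library, the log2 difference was -3.58 for Camp and -7.67 for Ngp, and 9 of 9 members were at least 2-fold lower. The neutrophil-like cells moved with these values, with 34 of 7969 Ndrg2-KO cells (0.427%) against 922 of 7257 untreated cells (12.7%), as did the basophil markers, of which 5 of 6 were at least 2-fold lower. The proliferating cluster that held most primary UMIs of the untreated culture numbered 1763 cells there and 127 in the Ndrg2-KO culture, whose proliferating cells lay mainly in another cluster (1050 cells). Over all proliferating clusters the numbers were 2342 and 1295 cells. Of the granulocyte-monocyte progenitor markers, 7 of 10 were at least 2-fold lower (median -1.28), and of the monocyte markers 3 of 6 (median -1.70). The part of these cells in the member values was not tested.

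Among the other genes of the granule programme, Prss57 (-5.17), a serine protease of the primary granules, and Serpinb1a (-3.42), an inhibitor of elastase, cathepsin G and proteinase 3, were lower with the primary genes, the 2 of 6 counted primary granule partners that were 2-fold lower. Of the 13 secondary granule partners, 8 were at least 2-fold lower, among them Cd177 (-4.23), Itgb2l (-3.46) and Fcnb (-2.92), and 2 were higher, Mmp8 (1.23) and Cybb (1.46), beside the 9.28% of all genes that were lower and 10.2% that were higher. Cebpe, the transcription factor of the secondary granule stage, differed by 0.65 and Gfi1 by -1.39, while Myb, a factor of proliferating progenitors, was lower at -3.59.

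The summed UMIs of the primary granule genes were lower in the VD3 culture, and no secondary gene passed 2-fold. Compared with the untreated culture, all 5 primary genes were lower by at least 2-fold, a count of 5 of 9 members against a background of 7.44% of 13113 genes, and 0 of 9 members were 2-fold higher against a background of 4.18%. The log2 differences were -2.32 for Ms4a3 (-2.40 to -2.24), -1.29 for Elane, -1.11 for Mpo, -1.08 for Ctsg and -1.01 for Prtn3. The secondary genes stayed within 2-fold, with 0.95 for Lcn2 (0.93 to 0.98), 0.66 for Ngp and 0.65 for Ltf, while Camp differed by 0.02 (-0.07 to 0.10), a direction that turned to -0.26 in the mean over cells and -0.11 without the 10 highest cells. The median was -0.08 over all those genes.

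Several of the primary values lay near the 2-fold limit. The count was 3 of 9 in sums without mitochondrial and ribosomal protein genes, where Prtn3 gave -0.91 and Ctsg -0.99, and 3 of 9 without the 10 highest cells, where Mpo gave -0.70 and Prtn3 -0.95. The share of cells with a UMI, after drawing each cell to 2000 UMIs, did not follow the sums for 3 of the 5: it was 2.68% untreated and 3.24% with VD3 for Prtn3, 1.13% and 1.08% for Elane, and 0.251% and 0.248% for Mpo, against 1.31% and 0.795% for Ctsg and 4.67% and 1.21% for Ms4a3. In mature DCs, with median depths of 14366 and 13375 UMIs against 15804 and 12089 UMIs over all cells, the share was 0.333% and 0.231% for Prtn3 and 0% for Mpo and Elane. The direction of all 5 genes stayed negative in the sums named here and in the mean over cells. Among cells with under 5% mitochondrial UMIs, the secondary genes passed 2-fold too, with log2 differences of 1.53 for Ngp, 1.42 for Ltf, 1.37 for Lcn2 and 1.09 for Camp.

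Among the partners, Serpinb1a (-3.22) and Ctsc (-1.33), the protease that activates elastase and its relatives, were the 2 of 6 counted primary partners that were 2-fold lower in VD3 stimulated DCs, and Prss57 gave -0.95. Of the 13 secondary partners, Olfm4 (1.01) and Ly6g (1.38) were 2-fold higher and Cybb (-1.23) and Wfdc21 (-1.15) 2-fold lower, with Pglyrp1, a peptidoglycan recognition protein, at 0.72. Of the 10 transcription factors, 4 were at least 2-fold lower, Myb (-1.13), Klf4 (-1.43), Gfi1 (-1.60) and Cebpa (-1.61), and 1 was higher, Irf8 (1.21), while Cebpe differed by 0.12. The share of neutrophil-like cells was 12.6% in VD3 stimulated and 12.7% in untreated DCs. Of the granulocyte-monocyte progenitor markers, 5 of 10 were at least 2-fold lower with VD3 and 1 higher (median -1.04), and of the monocyte markers 4 of 6 were lower (median -1.31), beside a median of -1.11 for the primary genes, and their part in the primary gene values was not tested.

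The primary granule genes lay mainly outside the neutrophil-like cells. In untreated DCs, 1 proliferating cluster of 1763 cells, with all 6 proliferation markers among its markers, held 95.0% of the Mpo, 98.2% of the Elane, 96.8% of the Prtn3 and 92.0% of the Ms4a3 UMIs. Of the Ctsg UMIs it held 76.4%, and a basophil-like cluster of 60 cells held another 22.6% at 1440 CPM (1439.6), with 0 Camp and 0 Ltf UMIs. The secondary genes were divided between the neutrophil-like cluster, with 50.7% of the Ltf and 37.0% of the Ngp UMIs, and the proliferating clusters, with 42.2% and 58.8%. Mature DCs of the same library stood at 0.168 CPM for Mpo, 1.44 for Prtn3, 0.719 for Ngp and 1.75 for Lcn2, levels to set against free RNA.

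In single cells, the primary genes were found together, though part of their cells also held secondary genes. To compare cells of unequal depth, each cell was drawn down to 2000 UMIs, which left out between 102 and 1149 shallower cells per library, and basophil-like cells were kept apart. In untreated DCs, of 15 cells with an Mpo UMI, 15 held Elane, 14 Prtn3, 13 Ctsg and 13 Ms4a3. Of the secondary genes, 5 of these 15 cells held Lcn2, 4 held Ngp and 0 held Camp or Ltf. With 15 cells, that 0 allows a share of up to 21.8% (exact binomial). Of 77 cells with Elane, 66 (85.7%) held Prtn3 and 62 (80.5%) Ms4a3, and of 69 cells with Ctsg, 62 (89.9%) held Prtn3. Prtn3 was found in 2.69% of all cells so drawn.

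Among the secondary genes, Ngp and Lcn2 were found in most cells that held Camp or Ltf. Of 40 untreated cells with a Camp UMI, 75.0% held Ngp and 80.0% Lcn2, and of 60 cells with Ltf, 71.7% held Ngp and 81.7% Lcn2. Camp and Ltf themselves were rarer partners: of the cells with Ltf, 31.7% held Camp. Of 140 cells with Ngp, 86.4% held Lcn2, 30.7% Ltf and 21.4% Camp, beside 42.1% with Ms4a3, 30.0% with Prtn3 and 2.86% with Mpo. Ms4a3 was found in 307 cells, of which 37.8% held Prtn3 and 44.6% Lcn2. The other primary genes shared this overlap: Lcn2 was found in 51.9% of the cells with Elane, 49.3% with Ctsg, 44.2% with Prtn3 and 33.3% with Mpo.

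In VD3 stimulated DCs the proteases were again found with Prtn3, and most cells of each primary gene held Lcn2, with the highest share for Ms4a3. Of 82 cells with Elane, 74.4% held Prtn3 and 14.6% Ms4a3, and of 15 cells with Mpo, 14 held Prtn3 and 9 Elane. Of 43 cells with Camp, 81.4% held Ngp and 93.0% Lcn2. Of 88 cells with Ms4a3, 79.5% held Lcn2, 47.7% Prtn3, 39.8% Ngp and 13.6% Elane. Lcn2 was also found in 63.4% of the cells with Elane, 53.5% with Ctsg and 52.4% with Prtn3, and in 9 of the 15 with Mpo. Lcn2 itself was found in 909 cells, of which 20.5% held Ngp.

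**Figure D2:**
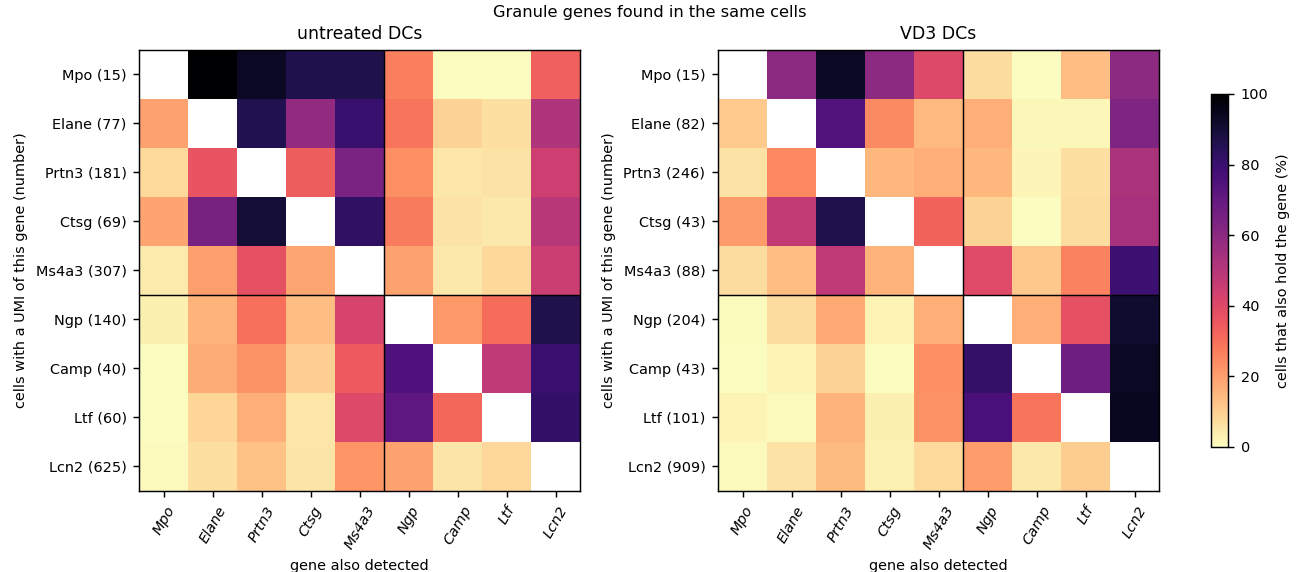
Share of the cells with a UMI of the gene in the row that also held the gene in the column, in %, for untreated and VD3 stimulated DCs drawn to 2000 UMIs, with the number of cells per row in brackets and lines between the primary and secondary genes. In untreated DCs 85.7% of Elane cells held Prtn3 and 86.4% of Ngp cells held Lcn2, and of the Ms4a3 cells 44.6% held Lcn2 in untreated and 79.5% in VD3 stimulated DCs.

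Cells were then sorted by the classes they held, taking at least 2 of the 5 primary or at least 2 of the 4 secondary genes at 2000 UMIs. Untreated DCs had 110 cells with the primary class alone, 33 with both and 98 with the secondary class alone among 6785 cells. VD3 stimulated DCs had 87, 25 and 185 among 7676 cells, and Ndrg2-KO DCs 0, 2 and 13 among 7835. The wounds had 0 cells with the primary class and 11 of 1846, 82 of 5136 and 27 of 3171 cells with the secondary class. Cells with 2 primary genes were therefore seen in the 3 cultures only at this depth, and the 0 of 1846, 0 of 5136 and 0 of 3171 wound cells allow shares of up to 0.200%, 0.0718% and 0.116% (exact binomial).

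As shares, the primary class was found in 2.11% of untreated cells (1.78 to 2.48%) and 1.46% of VD3 stimulated cells (1.20 to 1.75%), and the secondary class in 1.93% (1.62 to 2.29%) and 2.74% (2.38 to 3.13%). Of the cells with the primary class, 23.1% of the untreated and 22.3% of the VD3 stimulated ones also held the secondary class. Cells that should lack these genes gave a low background: 0 of 2702 untreated, 0 of 3457 VD3 stimulated and 0 of 2078 Ndrg2-KO mature DCs held either class, with median depths of 14383.5, 13403 and 10839.5 UMIs before drawing. In wound fibroblasts, 0 of 483, 0 of 502 and 0 of 341 held the primary class and 1 of the 341 in the blank wounds the secondary class.

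These classes are ranges of a count and not cell types. In untreated DCs, 263 cells held exactly 1 primary gene, 66 held 2 and 77 held 3 or more. With 3 secondary genes required, 53 untreated, 84 VD3 stimulated and 8 Ndrg2-KO cells remained, but 0, 5 and 0 cells of the wounds. Cells with exactly 2 secondary genes numbered 78, 126 and 7 in the cultures and 11, 77 and 27 in the wounds.

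**Figure D3:**
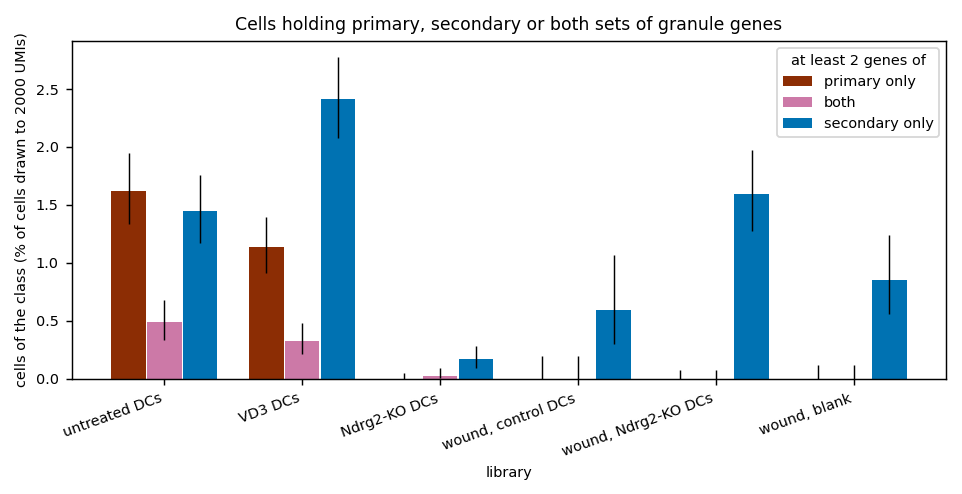
Share of cells, in % of cells drawn to 2000 UMIs, that held at least 2 primary genes only, at least 2 genes of each class, or at least 2 secondary genes only, per library, with exact 95% binomial intervals (counting error only). Primary-class cells appear in untreated and VD3 stimulated DCs (2.11% and 1.46% including those with both classes) and in 0 cells of the wounds.

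The classes overlapped in where their cells lay. Of the 143 untreated cells with the primary class, 135 lay in proliferating clusters, 7 in the basophil-like cluster and 1 among the neutrophil-like cells. Of the 131 with the secondary class, 74 lay in proliferating clusters and 53 among the neutrophil-like cells. In VD3 stimulated DCs, 91 of 112 cells with the primary class and 93 of 210 with the secondary class lay in proliferating clusters, and 93 of the 210 were neutrophil-like. The median depth before drawing was 26601 UMIs in untreated cells with the primary class alone, 23199 with both and 10918 with the secondary class alone.

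Genes that the sorting did not use changed level from class to class. In untreated DCs (basophil-like cells left out), the division gene Mki67 stood at 234 CPM in 103 cells with the primary class alone, 277 CPM in the 33 cells with both, 173 CPM in the 98 cells with the secondary class alone and 12.6 CPM in the 922 neutrophil-like cells, which include 53 of the 98. Myb, a factor of progenitors, stood at 60.6, 57.4, 12.6 and 1.49 CPM in the same order, and Gfi1 at 20.7, 25.7, 3.15 and 1.71 CPM. Cebpe was highest in cells with both classes, at 90.8, 353, 174 and 58.1 CPM. Of the 6 proliferation genes, 3 were highest in cells with the primary class alone and 3 in cells with both. Of the 10 transcription factors, 4 were highest in cells with the primary class alone, 3 in cells with both and 3 in the neutrophil-like cells.

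Granule partners spread along the same classes. Serpinb1a stood at 304, 927, 385 and 60.8 CPM and Prss57 at 66.1, 117, 18.9 and 1.49 CPM in the order primary, both, secondary and neutrophil-like. Fcnb, the gene of ficolin B, stood at 21.3, 114, 59.0 and 14.9 CPM and Cd177, a neutrophil surface protein, at 24.7, 132, 363 and 85.6 CPM. Mmp8, the neutrophil collagenase, stood at 16.9, 3.66, 301 and 769 CPM and Mmp9, the gelatinase of the tertiary granules, at 0.678, 1.22, 88.9 and 158 CPM. Of the 6 primary partners with at least 50 UMIs over the classes, 3 were highest in cells with the primary class alone, 2 in cells with both and 1 (Cd63) in the neutrophil-like cells. Of the 13 secondary partners, 3 were highest in cells with both classes (Fcnb, Hp and Wfdc21), 7 in cells with the secondary class alone and 3 in the neutrophil-like cells (Cyba, Mmp8 and Slpi). All 7 counted tertiary granule and secretory vesicle genes were highest in the neutrophil-like cells.

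In VD3 stimulated DCs, Cebpe was again highest in cells with both classes, at 87.1, 298, 252 and 104 CPM, and Mmp9 in the neutrophil-like cells, at 0, 0, 131 and 445 CPM. Serpinb1a was lower in each class, at 29.6, 212, 90.2 and 33.0 CPM, and Myb stood at 15.4, 20.5, 3.81 and 0.922 CPM. Cells with the primary class alone numbered 80 here and those with both 25, so these sums rest on few cells. Of the secondary partners, 3 were highest here in cells with both classes, 6 in cells with the secondary class alone and 4 in the neutrophil-like cells. The 7 counted tertiary genes were again highest in the latter. Other lists changed: all 6 proliferation genes were highest in cells with both classes. Of 9 counted transcription factors, 1 was highest with the primary class alone, 3 with both, 1 with the secondary class alone and 4 in the neutrophil-like cells. The 6 primary partners gave 2, 2, 0 and 2 in that order. The cells with the primary class also came from another cluster: 130 of the 143 untreated cells with the primary class lay in 1 proliferating cluster, whereas 77 of the 112 VD3 stimulated ones lay in a second one, which held 16 untreated cells in all.

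**Figure D4:**
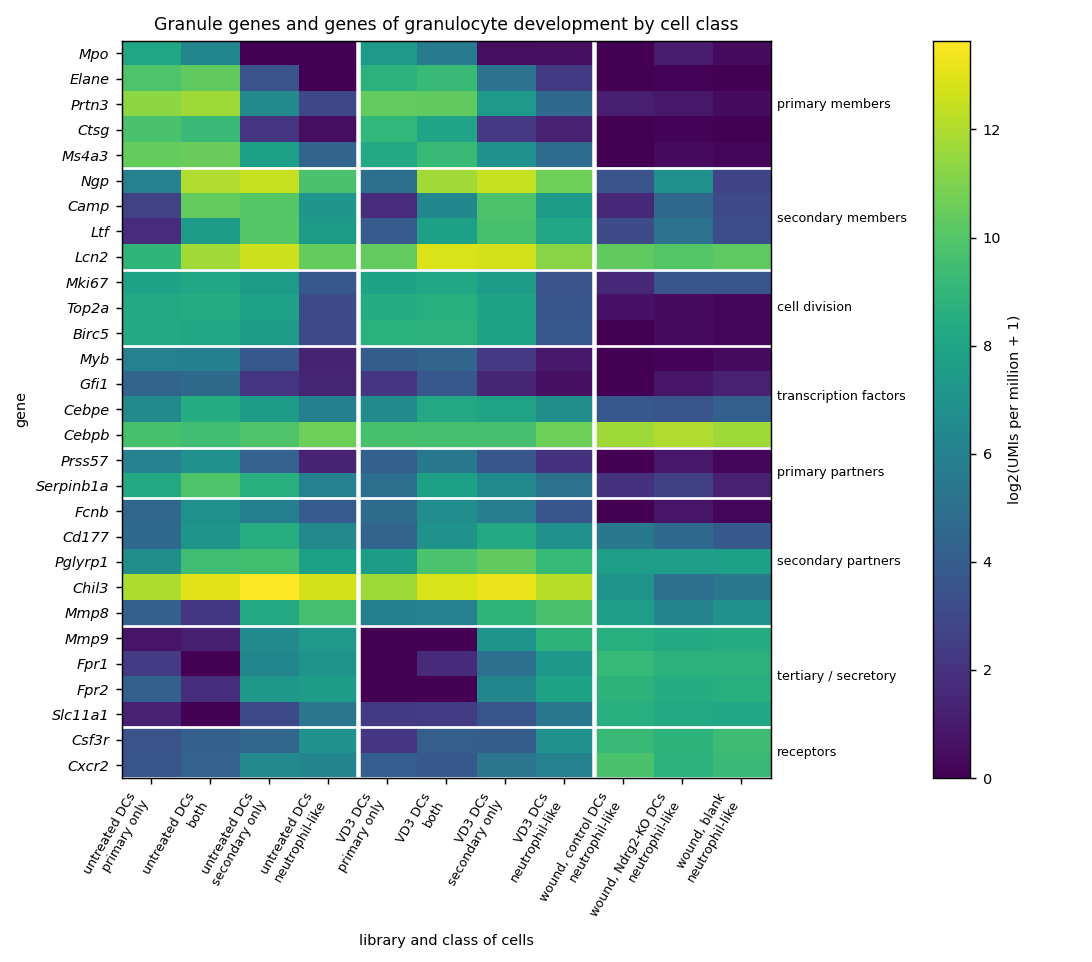
Level of granule genes and of genes of granulocyte development, as log2(CPM + 1), in cells sorted by the granule class they held at 2000 UMIs and in neutrophil-like cells of untreated DCs, VD3 stimulated DCs and the 3 wounds. Mki67 and Myb are high in the cells with the primary class and low in the neutrophil-like cells of each culture (Mki67 at 234 and 12.6 CPM in untreated DCs) while within a culture Mmp9 and Csf3r are highest in the neutrophil-like cells, and in the wounds Csf3r is higher still (447 to 684 CPM) and Lcn2 is the one granule member above 1000 CPM.

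Neutrophil-like cells of the cultures and of the wounds shared a name but differed in the mRNA levels of Ngp, Camp and Ltf. They numbered 922 in the untreated and 1112 in the VD3 culture, and 462, 2898 and 1564 in the wounds, with median depths of 2853.5 to 3358 UMIs. The culture cluster had 7 of 10 neutrophil and 7 of 10 neutrophil precursor markers. The 2 wound clusters had 10 of 10 neutrophil markers and 5 and 3 of 10 precursor markers. A marker was counted against the other clusters of its own set, cultures or wounds, so these counts have unlike backgrounds. Csf3r, the receptor of G-CSF, stood at 117 CPM in both cultures and at 612, 447 and 684 CPM in the wounds.

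Within these cells, Ngp stood at 855 CPM without and 1574 CPM with VD3, and at 10.4, 114 and 5.94 CPM in the wounds. Camp stood at 145 and 172 CPM in the cultures and 1.83, 23.3 and 8.14 CPM in the wounds, and Ltf at 172 and 257 CPM in the cultures and 7.92, 34.5 and 8.82 CPM in the wounds. For all 3 genes the untreated and the VD3 culture stood above each wound. Lcn2 stood at 1350 (1349.6) and 2411 CPM in the cultures and 1286, 1002 and 1240 (1240.4) CPM in the wounds, so that the untreated culture and the control wounds differed by 0.07 on the log2 scale (-0.00 to 0.14). The 34 neutrophil-like cells of the Ndrg2-KO culture, few as they were, stood at 84.1 CPM of Ngp, 145 of Camp, 38.2 of Ltf and 2460 (2460.4) of Lcn2.

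The other members were low in these cells. Ms4a3 stood at 21.1 and 26.1 CPM and Prtn3 at 6.62 and 24.7 CPM without and with VD3, and the wounds held 0, 3 and 1 Ms4a3 UMIs and 2, 8 and 2 Prtn3 UMIs in all their neutrophil-like cells. Elane gave 0 and 17 UMIs in the 2 cultures and 0, 1 and 0 in the wounds.

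Summed over the 2 cultures and the 3 wounds, 5 of the 6 members with at least 50 UMIs were at least 2-fold higher in the culture. The background here was 64% of 9530 genes, so the count itself is no result about the members. The log2 differences were 6.67 for Ms4a3, 4.46 for Prtn3, 4.16 for Ngp (10827 against 1163 UMIs, 4.07 to 4.25), 3.29 for Camp and 3.20 for Ltf, against a median of 1.85 over all those genes. Ms4a3 (212 against 4 UMIs) and Prtn3 (138 against 12 UMIs) passed the minimum of 50 UMIs only through the cultures, so the filter favours their direction. The wound sum of Ngp rested on the Ndrg2-KO wounds, which gave 1111 of its 1163 UMIs, 899 of them in 2 cells. Taken singly, the untreated and VD3 cultures differed by 6.37 and 7.25 from the control wounds and by 7.17 and 8.05 from the blank wounds in Ngp, but by 2.91 and 3.79 from the Ndrg2-KO wounds. Camp and Ltf moved likewise, at 4.15 to 6.56 and 4.28 to 5.02 against the control and blank wounds and at 2.32 to 2.90 against the Ndrg2-KO wounds. In the summed comparison, Lcn2 differed by 0.74. Median-ratio size factors, which shift every gene by 1.87, turned this to -1.13, while Ngp then gave 2.29, Camp 1.42 and Ltf 1.33. Under that scaling the count was 5 of 6 with a background of 32.8%. Tissue, digestion and the version of the counting software differed between cultures and wounds and cannot be told apart from the stage of the cells.

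Marker lists moved with this comparison. Granulocyte-monocyte progenitor markers were at least 2-fold higher in the culture in 4 of 5 counted cases and lower in 0 (median 1.67), beside 64% of all genes higher. Proliferation markers had summed levels of 79.6 and 106 CPM in the cultures against 11.6 to 23.6 CPM in the wounds. Of the 10 neutrophil markers, 8 were at least 2-fold lower and 0 higher in the culture (median -2.59), with summed levels of 37938 and 48278 CPM against 117853 to 145163 CPM in the wounds. All 8 mature DC markers were at least 2-fold higher in the culture neutrophil-like cells, with a summed level of 390 to 491 CPM against 18.3 to 28.7 CPM in the wounds, where 5 of the 8 were at 0 in the control wounds. All 5 erythroid markers and the 5 counted fibroblast markers were at least 2-fold higher in the wound cells. The part of such RNA in the granule values was not tested. The mature DCs held 0.719 CPM of Ngp in the untreated and 0.715 CPM in the VD3 culture.

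Of the 13 secondary granule partners, 7 were at least 2-fold higher in the culture and 3 lower, a share of higher genes below the 64% of all genes, with Chil3 at 7.03, Cybb at 3.16 and Cd177 at 2.18 on one side and Slpi, an inhibitor of elastase, at -3.06 on the other. Of the 8 counted tertiary granule and secretory vesicle genes, 0 were higher and 4 lower in the culture (13.5% of all genes were lower), among them Slc11a1 (-2.85) and Adam8 (-3.41). Mmp9 differed by -0.19. Srgn, the proteoglycan core on which granule proteins are packed, stood at 403 CPM in the culture and 13630 (13630.2) CPM in the wounds.

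**Figure D5:**
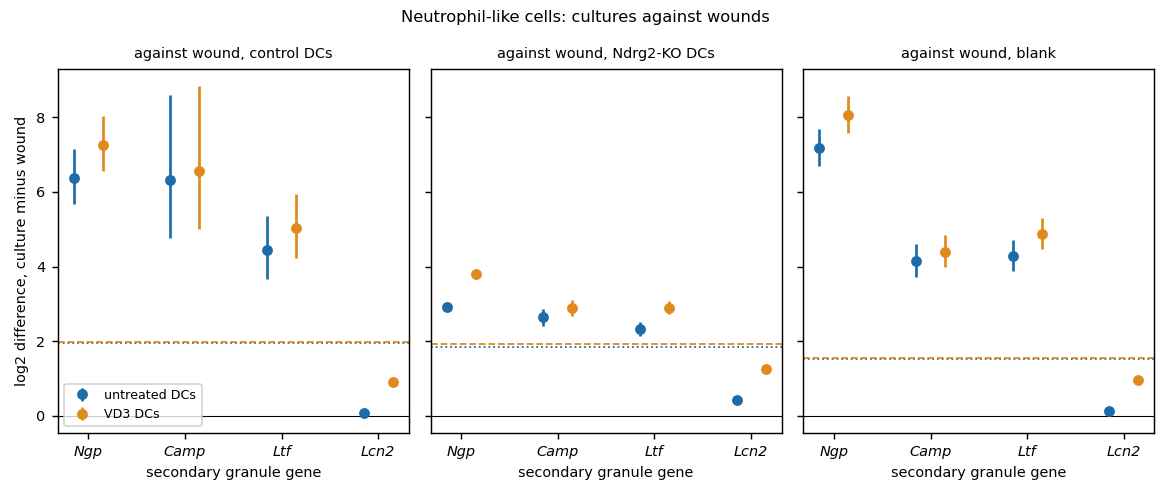
Log2 difference of each secondary granule gene between neutrophil-like cells of 1 culture and of 1 wound library, with exact 95% intervals (counting error only) and horizontal lines at the median of all genes counted in that pair. Ngp, Camp and Ltf lie above that median in all 6 pairs (Ngp from 2.91 to 8.05), and Lcn2 lies between 0.07 and 1.27, below it.

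The share of neutrophil-like cells with a UMI gave a second view of the difference. At 2000 UMIs, Lcn2 was found in 49.8% and 54.8% of them without and with VD3 and in 52.8%, 47.7% and 55.4% in the 3 wounds, against 0.296% of untreated mature DCs and 2.49% to 5.62% of the mature DCs of the wounds. Ngp was found in 7.48% and 9.98% in the cultures and in 1.20%, 1.96% and 0.703% in the wounds, against 0.185% of untreated mature DCs and 0% of the mature DCs of each wound. The median depths before drawing were 10624.5, 8876 and 9758 UMIs in the mature DCs of the wounds, above those of the neutrophil-like cells. Most neutrophil-like cells of the cultures thus held no Ngp UMI at this depth, and the level came from a minority.

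The Ndrg2-KO wounds held more of 4 members than the control wounds. Of 6 members with at least 50 UMIs, 4 were at least 2-fold different, all of them higher, against a background of 10.6% of 13358 genes different and 4.39% higher, with a median log2 difference of -0.15 over all those genes. The differences were 6.81 for Ctsg (186 against 1 UMIs, 4.31 to 12.12), 4.32 for Ngp (1128 against 34 UMIs), 3.79 for Ltf and 3.25 for Camp, with Prtn3 at 0.89 and Lcn2 at -0.47. Ctsg, Ngp, Ltf and Camp reached 50 UMIs only through the Ndrg2-KO wounds, where they were high, so the filter itself favours their direction and the count is given as a description. The direction for Lcn2 turned to 0.36 in the mean over cells. The share of neutrophil-like cells moved with these values, at 51.0% against 23.7%, and 9 of 10 neutrophil markers were at least 2-fold higher. Erythroid markers were at least 2-fold higher in 5 of 5 cases (median 2.49), also within the neutrophil-like cells (median 4.24, summed level 3478 against 186 CPM), and fibroblast markers lower in 5 of 6. The part of these cells in the member values was not tested.

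In the Ndrg2-KO wounds, 2 neutrophil-like cells held 899 of the 1128 Ngp UMIs (79.7%), 139 of the 269 Camp UMIs and 249 of the 366 Ltf UMIs. These 2 cells held 518 and 381 Ngp UMIs, 207 and 78 Lcn2 UMIs and 0 UMIs of the 5 primary genes, and together 256 UMIs of Retnlg, a gene of mature neutrophils, 86 of Chil3 and 28 of Cd177. The next cell held 26 Ngp UMIs. Without them, Ngp stood at 4.65 CPM, Camp at 2.64 CPM and Ltf at 2.38 CPM in the library, and at 21.7, 9.12 and 9.02 CPM within the neutrophil-like cells.

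The Ctsg UMIs lay almost wholly outside the neutrophil-like cells. A further 2 cells, in a cluster of granzyme-rich NK-like cells, held 182 of the 186 Ctsg UMIs, together with 3323 UMIs of Gzmf, 2551 of Gzmg, 2133 of Gzmd and 578 of Gzma, 7 of the basophil gene Mcpt8 and 0 of the mast cell genes Cpa3 and Mcpt4. Without these 4 cells, 3 of 5 counted members were at least 2-fold higher: Camp at 2.21, Ltf at 2.14 and Ngp at 2.02. With all cells kept, 4.39% of all genes were at least 2-fold higher. The 4 cells were singled out after their values were seen. No cells were left out of the control wounds, where 1 cell held 16 of the 34 Ngp UMIs. Camp, Ltf and Ngp again reached 50 UMIs only through the Ndrg2-KO wounds, so this count is a description too.

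The blank wounds differed from the control wounds in fewer members. Of 5 members with at least 50 UMIs, 2 were at least 2-fold different, Camp at 2.14 (1.38 to 2.98) and Ltf at 1.74 (0.93 to 2.63), against a background of 7.6% of 13137 genes different and 3.71% higher. Both passed the minimum of 50 UMIs through the blank wounds, so this count is a description too. Ngp differed by -0.11 (-0.82 to 0.60), Prtn3 by -0.20 and Lcn2 by -0.45, and Lcn2 turned to 0.65 in the mean over cells, Ngp to 1.64 and Prtn3 to 0.02 without the 10 highest cells, and Ngp to 0.76 without the highest 6% of doublet scores. The Camp value rested on 88 against 17 UMIs, of which 1 fibroblast-like cell of the blank wounds held 33. With at least 100 UMIs required, 1 member was counted as different. Neutrophil-like cells made up 46.0% of the blank and 23.7% of the control wounds. Erythroid markers were at least 2-fold higher in the blank wounds in 5 of 5 cases (median 1.12), and in 4 of 4 counted within the neutrophil-like cells (median 3.44), while fibroblast markers were lower in 3 of 6 and keratinocyte markers in 3 of 5. Their part in the member values was not tested.

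Lcn2 was not confined to neutrophils in the wounds. In the control wounds, fibroblast-like cells held 80.3% of its UMIs at 599 CPM and neutrophil-like cells 18.2%, whereas neutrophil-like cells held 70.7% and 73.3% in the Ndrg2-KO and blank wounds, where fibroblast-like cells stood at 191 and 173 CPM. At 2000 UMIs, 16.6%, 16.3% and 14.4% of the fibroblast-like cells held an Lcn2 UMI in the 3 wounds, while the level in the control wounds rested on few cells, since 10 cells held 32.7% of the Lcn2 UMIs of that library, up to 536 in 1 cell. In the cultures, by contrast, mature DCs stood at 0.55 to 2.64 CPM of Lcn2.

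Prtn3 in the wounds came mostly from cells other than the neutrophil-like ones. It stood at 4.56, 8.19 and 8.30 CPM in macrophage-like cells and at 9.23, 15.7 and 1.60 CPM in mature DC-like cells, but at 1.22, 0.818 and 0.339 CPM in the neutrophil-like cells. In Ndrg2-KO DCs, the largest part of its UMIs, 29.0%, lay in an unnamed cluster of 482 cells at 50.2 CPM, whose leading genes included Mmp9, Chil1 and Fpr1, and 22.2% in a cluster of 3624 cells at 2.36 CPM.

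Other genes followed the summed classes across cell groups. Over 53 groups of at least 50 cells (1 cluster in 1 library each, so that groups share libraries and clusters), the 5 of 14671 genes whose log2(CPM + 1) had the highest Pearson r with the summed primary genes were Gm10384 (0.78), Chst13 (0.76), Mutyh (0.73), 1700020L24Rik (0.73) and P2rx1 (0.71). For the summed secondary genes they were S100a8 (0.82), Trem3 (0.81), Gm14005 (0.81), S100a9 (0.80) and Pdlim7 (0.80). S100a8 and S100a9 encode calprotectin, an abundant cytosolic protein of neutrophils. Of the genes ranked with the primary sum, Gm10384 and Mutyh were low, with highest levels of 6.26 and 4.69 CPM over the groups. That sum included a basophil-like group, where Ctsg reached 1440 CPM (1439.6). The secondary sum was carried by Lcn2, whose own r with it was 0.99, against 0.69 for Ngp, 0.73 for Camp and 0.75 for Ltf. These values describe the groups and carry no test.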

How the data were processed

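The authors deposited UMI counts as 6 matrices (genes by cell barcodes), made per the file headers with Cell Ranger 3.1.0 (cultures) and 6.0.0 (wounds). The methods of the study name the mouse build mm10, and the submitters' processing notes list mm9 and Seurat 3.1.1, without roles. Groups were taken from the labels, with 1 library each.

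The filters on cells (a minimum of 300 genes, a total below 100000 UMIs and a mitochondrial share below 10%) left 7257, 8825 and 7969 cells of the untreated, VD3 and Ndrg2-KO cultures (132574308, 116461484 and 143627482 UMIs) and 1948, 5681 and 3403 cells of the control, Ndrg2-KO and blank wounds (29675507, 49240341 and 34905741 UMIs). Cells of the cultures and of the wounds were clustered separately, without the 9 members, in Seurat 5.3.0 under R 4.3.3 (2000 variable genes, 15 components, resolution 0.5), and a cluster was named where at least 3 markers of a fixed list stood at 50 CPM or more and 2-fold over the other clusters. Doublets were kept, since Scrublet (scanpy 1.11.5) with its automatic threshold marked at most 0.873% of a library. An alternative left out the highest 6% of its scores.

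Counts were summed and divided by the total (CPM). Shares were taken after a random draw of 2000 UMIs per cell, once per library. Poisson, binomial (Clopper-Pearson) and conditional binomial intervals of ratios are exact and at 95%. A ratio was counted with at least 50 UMIs in both sums together, a sum of 0 was set to a floor of 3 UMIs, and no model was fitted. Named genes were the 9 members, genes of fixed lists and the 5 genes with the highest correlation to each class. Ndrg2 was added as the gene cut, and Gzmf, Gzmg, Gzmd and Chil1 were named after their values were seen. The members and lists were chosen with earlier results of these data known. The motifs were chosen after the sequences were seen. The counting was tested on simulated data. SciPy 1.17.1 and NumPy 2.4.6 were used. Alternatives were median-ratio scaling, means over cells, totals that leave out mitochondrial and ribosomal protein genes, other cell filters, depths, thresholds and cluster settings, and, chosen after seeing the data, sums without the cells that held most UMIs.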

Additional observations from a re-analysis of the deposited data

How the results depend on the processing

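Each condition has 1 library, so library-to-library error is unknown, and depth limits any statement on genes with a few UMIs. No paired analysis was possible because each condition has 1 library. Of 156 alternative values, 116 stayed within 1.5 times the main count or within the main interval and 40 moved. The cause of these moves was not tested beyond what each setting changes by construction.

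The number of members at least 2-fold lower with VD3 was 5 of 9, beside 7.44% of all genes in the main setting. It was 3 in sums without mitochondrial and ribosomal protein genes, 3 in the mean over cells, 3 without the 10 highest cells and 1 at 3-fold. For blank against control wounds, the main count of 2, beside 7.6% of all genes different, became 1 with at least 100 UMIs required.

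The share of cells with at least 2 primary genes (2.11%, 1.46% and 0.0255% in the untreated, VD3 and Ndrg2-KO cultures) was 5.43%, 3.58% and 0.138% at full depth, where 2, 4 and 1 cells of the control, Ndrg2-KO and blank wounds also passed (0.103%, 0.0704% and 0.0294%), and 1.13%, 0.469% and 0% with 3 genes required. At 1000 UMIs it was 1.54% and 0.671% in the first and second culture, with under 5% mitochondrial UMIs 3.29% in the untreated one, and with 300 UMIs in place of 300 genes 0% in the Ndrg2-KO one. The share with at least 2 secondary genes (1.93%, 2.74% and 0.191%) was 3.8%, 4.27% and 0.489% at full depth, 0.781%, 1.09% and 0.102% with 3 genes, and 2.91%, 3.73% and 0.739% under 5% mitochondrial UMIs. At 1000 UMIs it was 1.5% and 2.01% in the untreated and VD3 cultures. In the control, Ndrg2-KO and blank wounds (0.596%, 1.60% and 0.851%) it was 1.18%, 2.90% and 2.0% at full depth and 0%, 0.0974% and 0% with 3 genes. In the Ndrg2-KO wounds it was 0.734% at 1000 UMIs, 1.10% with 300 UMIs in place of 300 genes and 1.17% over all barcodes, and in the blank wounds 1.40% without the highest 6% of Scrublet scores.

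The share of primary-class cells that also held the secondary class (23.1% untreated, 22.3% VD3) was 10.4% and 5.56% with 3 genes, and with VD3 46.5% at full depth and 35.9% under 5% mitochondrial UMIs.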

Other observations

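Other secondary granule genes were higher in the Ndrg2-KO than in the control wounds, in 6 of 11 counted cases: Slpi by 2.13 on the log2 scale, Pglyrp1 by 1.83, Ly6g by 1.72, Olfm4 by 1.33, Wfdc21 by 1.28 and Mmp8 by 1.25, beside 4.39% of all genes. In the blank wounds, Slpi gave 1.62, Pglyrp1 1.55, Olfm4 1.11 and Ly6g 1.05 against the same control wounds, which both comparisons share, beside 3.71% of all genes at least 2-fold higher. Neutrophil-like cells made up 23.7% of the control, 51.0% of the Ndrg2-KO and 46.0% of the blank wounds, and within the neutrophil-like cells the same genes gave 0 of 11 higher and 2 lower in either comparison (medians of -0.38 and -0.48).

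The tertiary granule and secretory vesicle genes did not follow the 9 members in the Ndrg2-KO culture. Of 8 counted, Mmp9 (2.08), the integrin subunit Itgb2 (1.39) and the metal ion transporter Slc11a1 (1.26) were at least 2-fold higher than in the untreated culture and the formyl peptide receptors Fpr1 (-1.19) and Fpr2 (-1.41) at least 2-fold lower, beside 10.2% of all genes higher and 9.28% lower. Between neutrophil-like cells of the cultures and the wounds, Irf8 (4.61), Cebpe (2.61) and Cebpa (1.67) were the 3 of 8 counted transcription factors of granulopoiesis that were at least 2-fold higher in the culture, and Cebpb (-1.25) the 1 that was 2-fold lower, beside an all-gene median of 1.85, which lies above the value of Cebpa, and 64% of all genes at least 2-fold higher.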
